A study of Mus musculus with 6 samples.

Results

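Tubulins and the microtubule regulator stathmin were followed in B16F10luc2 cells, a mouse melanoma cell line that carries luciferase, under cyclic stretch and in static culture. The 10 genes were chosen by name: the alpha-tubulin genes Tuba1a, Tuba1b, Tuba1c and Tuba4a, the beta-tubulin genes Tubb2a, Tubb2b, Tubb4b, Tubb5 and Tubb6, and Stmn1. All 10 of the 10 were found among the 14883 genes of the deposited count table, and all 10 passed the filter on low counts that left 12377 genes for testing. The stretched group was 3 samples grown on flexible plates whose floor was elongated equally along both axes, by 15%, with 15 cycles in each minute and equal times of stretch and relaxation, over 24 h. The static group was 3 samples on plates of the same kind left unstretched. All samples came from 1 cell line, in serum-containing medium, and the labels do not state whether replicates were separate cultures. The p-values therefore measure the spread among these 6 samples only, and that spread may be technical.

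Total counts ran from 20494344 to 36351400 in the stretched libraries and from 19469286 to 30042222 in the static libraries. The 10 genes together took 0.644% to 0.66% of the counts in stretched libraries and 0.551% to 0.583% in static libraries. All 7 melanocyte markers looked for (Mitf, Sox10, Pmel, Tyr, Tyrp1, Dct and Mlana) were present, with summed levels of 19860 to 20450 CPM (each count relative to its library's scaled total) in stretched libraries and 22410 to 24790 CPM in static libraries. Mitf alone among them was higher in every stretched library (416 to 427 CPM, against 314 to 340 CPM in static libraries). Markers of leukocytes, endothelium and epithelium came to at most 1.01 CPM per list in any library. Each of these lists had only 1 gene in the count table (Lyz2, Pecam1 and Cdh1). The 4 fibroblast markers summed to 15.73 to 17.16 CPM in stretched and 12.98 to 17.88 CPM in static libraries. Among them Col1a1 was lower in every stretched library (4.17 to 5.38 CPM, against 5.91 to 6.68 CPM in static libraries). Pdgfra was higher in every one (2.01 to 2.63 CPM, against 1.32 to 1.74 CPM), and Col1a2 and Dcn overlapped. Ptprc, Cd3e, Cdh5, Kdr, Epcam, Krt5 and Krt14 were not found under these symbols in the count table.

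Microtubules are hollow polymers of alpha- and beta-tubulin heterodimers that grow and shrink at their ends, carry cargo through the cell and build the mitotic spindle. Mammals have several genes for each tubulin, whose proteins are alike in the globular core and differ mainly in the tail at the carboxyl end, where many modifications and associated proteins act. Cells also adjust tubulin mRNA levels to the amount of free tubulin, through a factor that binds the first residues of the growing chain and leads to decay of the mRNA being translated. Stathmin binds free tubulin dimers and promotes disassembly of microtubules.

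Under stretch, 5 of the 10 genes rose (Tuba1b, Tuba1c, Tubb4b, Tubb5 and Tubb6), 1 fell (Tuba1a), and 4 did not pass the test (Tuba4a, Tubb2a, Tubb2b and Stmn1). The largest gain was that of Tubb4b, 1.26-fold, and the loss of Tuba1a was 1.30-fold. The calls are those of edgeR's quasi-likelihood test at a Benjamini-Hochberg adjusted p under 0.05 over all genes tested. The same test called 50.9% of all tested genes, 24.9% higher and 25.9% lower, so 6 calls among 10 genes lie near this background. With scaling by library size alone, 6 of the 10 genes were called higher and 1 lower, against 4117 higher and 2401 lower among all genes. The median log2 fold change was 0.09 over the 10 genes and 0.0038 over all genes tested. CPM values of the groups did not overlap for 6 of the 10 genes, against 58.5% of all tested genes; 4 of them were higher and 2 lower in stretched cells, against 29% and 29.4% of all tested genes. When the null hypothesis was a change of up to 1.2-fold (edgeR's glmTreat), Tuba1a and Tubb4b stayed called (adjusted p = 0.0317 and 0.0433) and the other 4 did not, against 12.9% of all tested genes called. Over all 17 alternative settings the adjusted p of Tuba1a ran from 9.81e-13 to 0.0317, and that of Tubb4b from 7.04e-19 to 0.0433. RNA came from whole cultures, so a change in the share of cells in a given state and a change in RNA per cell cannot be told apart.

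**Figure D1:**
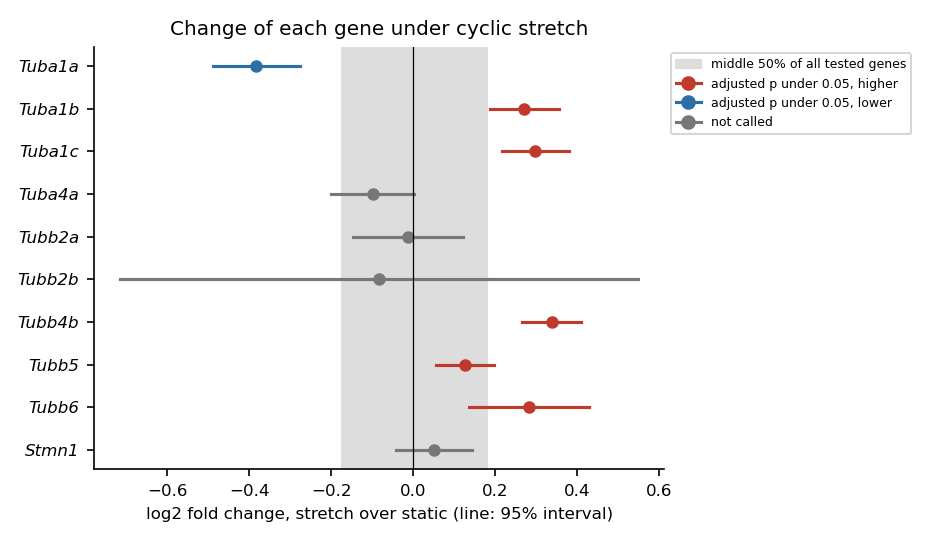
Log2 fold change of each of the 10 genes, stretched over static cells, as a point with its 95% interval from the fit across all genes; the grey band spans the quartiles of the log2 fold changes of all tested genes (-0.17 to 0.18). Tuba1a lies left of the band, Tuba1b, Tuba1c, Tubb4b and Tubb6 lie right of it, and the interval of Tubb2b is the widest.

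Tuba1a, Tuba1b and Tuba1c encode the alpha-tubulins of most cells and lie within 107 kb of each other on chromosome 15 (GRCm38; Tuba1b at 98931429 to 98934390, Tuba1a at 98949847 to 98953501, Tuba1c at 99029891 to 99038105). Their coding sequences are so alike that the division of reads between them is uncertain. In the coding sequence, Tuba1a and Tuba1b had 98.3% of bases in common, Tuba1b and Tuba1c 97.9%, and Tuba1a and Tuba1c 97.1%, while Tuba4a had 84.7% to 85.3% in common with these 3. The first 12 coding bases, which encode the residues read in the feedback on tubulin mRNA, are the same in all 3 genes: ATGCGTGAGTGC.

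How far reads can tell the genes apart was described by cutting each gene's transcript into words of 31 bases and asking whether transcripts of another gene hold the same word, on either strand (GENCODE M21, GRCm38). Of the words in Tuba1a, 78.6% were shared with another gene, most often Tuba1c, as were 86.0% of those in Tuba1b and 63.9% of those in Tuba1c. Within the coding sequence the shares were 97.7%, 97.2% and 94.5%. Outside it they were 17.6% in Tuba1a, 47.4% in Tuba1b and 0% in Tuba1c. The 31-base words that no other gene held therefore lay largely outside the coding sequence. These shares count a match to any other gene, not only matches among Tuba1a, Tuba1b and Tuba1c. Tuba1c, the gene that shared most with Tuba1a, held 54.7% of its 31-base words. How far coding words separate Tuba1a, Tuba1b and Tuba1c from each other was not tested. With words of 100 bases the shares within the coding sequence were lower, at 81.5%, 90.9% and 80.4%. For Tuba1b the gene that shared most was a gene model without a name, with 66.8% of the 31-base words. With 100-base words it was Tuba1c, with 48.6%. Tubb5 and Tubb6, in contrast, shared 4.47% and 3.94% of their 31-base words.

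**Figure D2:**
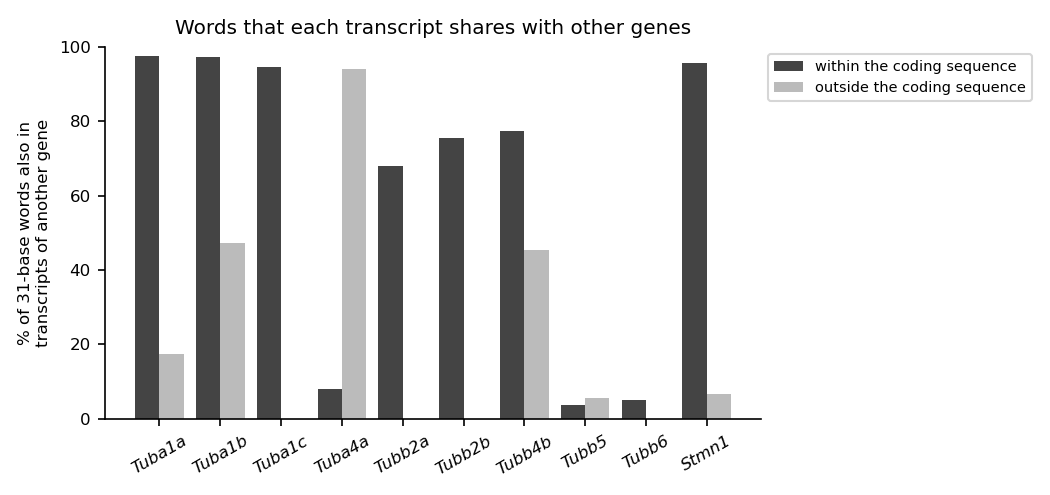
Percent of 31-base words in each gene's transcript that transcripts of another gene also hold, within the coding sequence (dark bars) and outside it (light bars). Coding words of Tuba1a, Tuba1b, Tuba1c and Stmn1 were shared at 94.5% or more, those of Tubb5 and Tubb6 at 3.602% and 5.175%, and Tuba4a shared 94.1% of its words outside the coding sequence.

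Tuba1b had the highest level of the alpha-tubulin genes, at 2794, 2816 and 2889 CPM in stretched replicates 1, 2 and 3, against 2355, 2461 and 2225 CPM in static replicates 1, 2 and 3. Every stretched library lay above every static one. Its mean was 2833 ± 49.7 CPM in stretched cells and 2347 ± 119 CPM in static cells (SD, n = 3 each), a 1.21-fold rise (log2 fold change 0.27, SE 0.04, 95% interval 0.19 to 0.36, edgeR adjusted p = 4.25e-05). Tuba1c stood at 202, 197 and 200 CPM in the stretched replicates, against 164, 168 and 155 CPM in the static replicates. It too had no overlap between groups, and rose 1.23-fold (log2 fold change 0.30, SE 0.04, edgeR adjusted p = 1.3e-05).

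Tuba1a, the alpha-tubulin gene best known from developing neurons, went the other way. It had 652, 705 and 693 CPM in the stretched replicates, against 874, 967 and 830 CPM in the static replicates, so that all stretched libraries lay below all static ones. Static replicate 2 was the highest. The mean was 683 ± 28.1 CPM in stretched and 891 ± 69.8 CPM in static cells (SD, n = 3 each), with a log2 fold change of -0.38 (SE 0.05, 95% interval -0.49 to -0.28, edgeR adjusted p = 1.64e-05). Leaving out each library in turn gave log2 fold changes of -0.43 to -0.32.

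The counts of Tuba1b stood to those of Tuba1a in a ratio of 4.29, 3.99 and 4.17 in stretched replicates and 2.69, 2.55 and 2.68 in static replicates, with no overlap. A sum over the family does not depend on how reads are divided within it. It still depends on how reads were divided with genes outside the family. The unnamed gene model that shared 66.8% of the 31-base words of Tuba1b is 1 such gene. The 4 alpha-tubulin genes together had 3684, 3756 and 3822 CPM in stretched replicates, against 3433, 3638 and 3251 CPM in static replicates. The summed level was 1.09 times as high in stretched as in static cells, and the groups did not overlap under any of the 4 scalings tried (log2 differences of 0.125 to 0.188). Static replicate 2, at 3638 CPM, came nearest to the stretched libraries.

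Tuba4a (chromosome 1, 75214972 to 75221261), whose protein is the alpha-tubulin made without a final tyrosine, had 36.3, 38.5 and 39.8 CPM in stretched replicates, against 40.3, 41.4 and 40.6 CPM in static replicates. The groups did not overlap, with stretched replicate 3 the nearest to the static libraries, but the difference missed the threshold (log2 fold change -0.10, 95% interval -0.20 to 0.0030, edgeR adjusted p = 0.0983). Its span overlaps that of Stk16, a kinase gene, and its longest transcript shared 48.0% of its words with Stk16 transcripts. Words outside the coding sequence were shared with other genes at 94.1%, and those within it at 8.05%. Reads from outside the coding sequence are therefore hard to assign between the pair. Stk16 itself stood at 58.8 ± 1.70 CPM in stretched and 63.9 ± 0.469 CPM in static cells (log2 fold change -0.12, edgeR adjusted p = 0.0181).

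**Figure D3:**
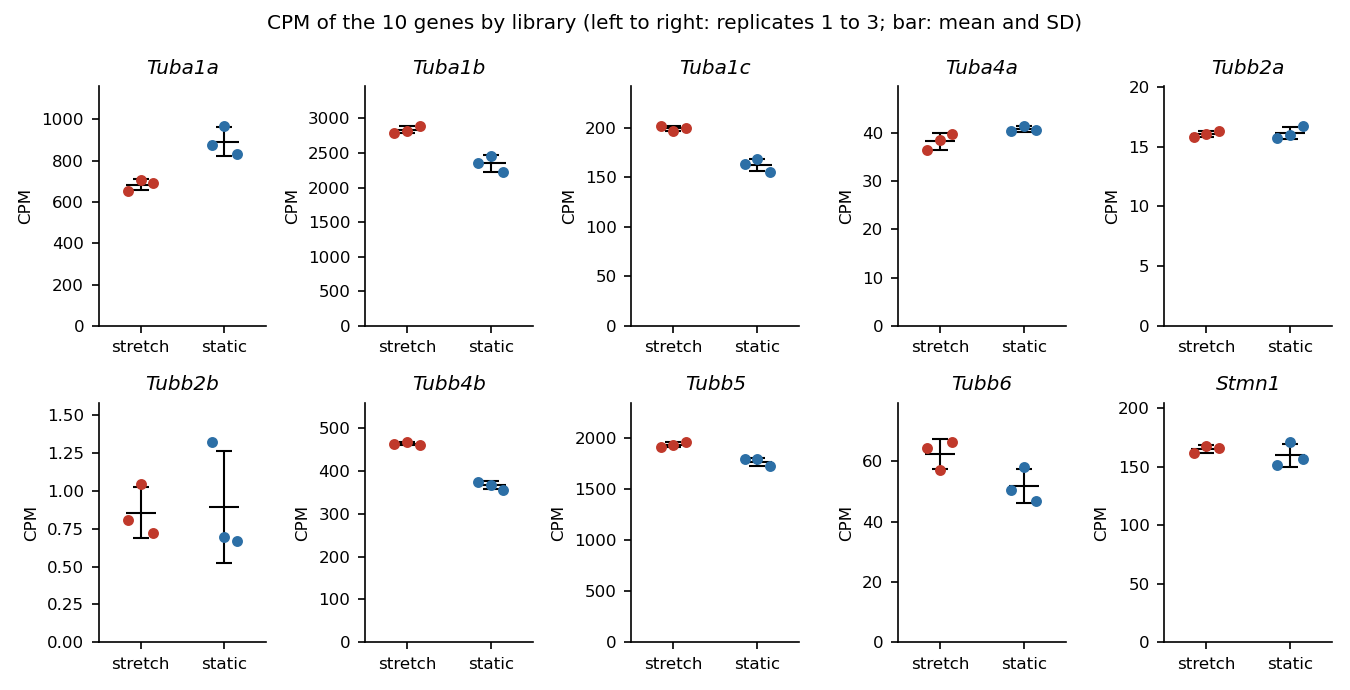
CPM of each of the 10 genes in the 3 stretched libraries (red, left) and the 3 static libraries (blue, right), replicates 1 to 3 from left to right, with mean and SD; each panel has its own axis from 0. Tuba1b, Tuba1c, Tubb4b and Tubb5 are higher in every stretched library, Tuba1a and Tuba4a are lower, and the groups overlap for Tubb2a, Tubb2b, Tubb6 and Stmn1.

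Among the beta-tubulin genes, Tubb5 and Tubb4b, the isotypes found in most cell types, gave nearly all of the counts. Tubb2a and Tubb2b, neighbours on chromosome 13 within 56.1 kb, had 96.5% of coding bases in common, and every other pair among these 5 genes had 80.3% to 84.6%. The last 75 coding bases of 4 of the genes, which hold the codons of the tail and the stop codon, show the part in which the isotypes differ most; capitals mark bases at which the 4 are not all the same.
Tubb4b: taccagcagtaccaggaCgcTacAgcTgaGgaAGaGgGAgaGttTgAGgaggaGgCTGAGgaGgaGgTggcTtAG
Tubb5: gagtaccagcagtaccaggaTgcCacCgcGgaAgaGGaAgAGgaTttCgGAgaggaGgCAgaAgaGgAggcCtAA
Tubb2a: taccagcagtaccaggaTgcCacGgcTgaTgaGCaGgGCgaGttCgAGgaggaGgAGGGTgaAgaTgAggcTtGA
Tubb2b: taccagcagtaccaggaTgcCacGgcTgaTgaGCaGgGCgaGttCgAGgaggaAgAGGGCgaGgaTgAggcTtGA

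Of the bases shown, 34.7% were capitals in Tubb4b, against 22.8% of the coding bases before them. The first 12 coding bases differ among these 4 genes but encode the same residues: ATGAGGGAGATC in Tubb4b, ATGAGGGAAATC in Tubb5, ATGCGCGAGATC in Tubb2a and ATGCGAGAGATC in Tubb2b.

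Tubb4b (chromosome 2, 25222158 to 25224702) had 463, 466 and 459 CPM in stretched replicates, against 374, 368 and 356 CPM in static replicates. The groups were far apart relative to their spread, with means of 462 ± 3.36 CPM in stretched and 366 ± 9.04 CPM in static cells (SD, n = 3 each). Its log2 fold change was 0.34 (SE 0.03, 95% interval 0.27 to 0.41, edgeR adjusted p = 1.32e-06), the lowest p of the 10 genes. Of its 31-base words 70.4% were shared with other genes, most of them with a Tubb4b pseudogene, and of its 100-base words 30.6%.

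Tubb5 (chromosome 17, 35833920 to 35838301), the most abundant beta-tubulin mRNA here, had 1906, 1932 and 1955 CPM in stretched replicates, against 1791, 1790 and 1723 CPM in static replicates. Every stretched library was higher, by a small margin: a 1.09-fold rise (log2 fold change 0.13, SE 0.03, 95% interval 0.06 to 0.20, edgeR adjusted p = 0.005). Few of its words are shared, so the division of reads bears little on it.

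Tubb6, a divergent beta-tubulin whose words are also largely its own, had 64.3, 57.0 and 66.3 CPM in stretched replicates, against 50.5, 58.0 and 46.9 CPM in static replicates. It rose 1.22-fold (log2 fold change 0.28, SE 0.07, edgeR adjusted p = 0.00297), although stretched replicate 2 lay below static replicate 2. Leaving out each library in turn gave log2 fold changes of 0.21 to 0.36, all of them called.

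Tubb2a and Tubb2b, beta-tubulins typical of neurons, were low and did not pass. Tubb2a had 15.8, 16.1 and 16.4 CPM in stretched replicates, against 15.8, 16.0 and 16.7 CPM in static replicates (log2 fold change -0.01, 95% interval -0.15 to 0.12, edgeR adjusted p = 0.875). Tubb2b had 30, 23 and 15 counts in stretched and 34, 13 and 20 counts in static libraries, and its 95% interval of -0.72 to 0.55 leaves changes of either sign possible.

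The 5 beta-tubulin genes summed to 2450, 2472 and 2497 CPM in stretched replicates, against 2232, 2233 and 2143 CPM in static replicates. The sum was 1.12 times as high in stretched as in static cells, with no overlap under any of the 4 scalings (log2 differences of 0.166 to 0.228). This sum too depends on reads shared with genes outside it, such as the Tubb4b pseudogene.

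To compare levels between genes, CPM were divided by the length of each gene's longest transcript in kilobases. On this scale the order of mean levels was the same in both groups: Tuba1b, Tubb5, Tuba1a, Tubb4b, Stmn1, Tuba1c, Tubb6, Tuba4a, Tubb2a and Tubb2b, and none of the 9 pairs of neighbours overlapped between libraries in either group. Tuba1b stood at 1626 ± 28.5 CPM per kb in stretched and 1347 ± 68.0 in static cells, Tubb5 at 729 ± 9.19 and 668 ± 14.7, and Tubb2b at 0.392 ± 0.0763 and 0.409 ± 0.168 (SD, n = 3 each). With the mean length of all transcripts of a gene instead, Tubb4b and Tuba1a could not be ordered in stretched cells, where their libraries overlapped (means of 381 and 379 CPM per kb).

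Within the alpha-tubulin sum per kb, Tuba1b made up 77.1%, 76.2% and 76.9% in stretched replicates, against 69.9%, 68.96% and 69.8% in static replicates. The share of Tuba1a was 17.4%, 18.5% and 17.8% in stretched replicates, against 25.1%, 26.2% and 25.2% in static replicates. Neither share overlapped between groups, and the difference between groups was far above the spread among replicates. In the beta-tubulin sum the shift was smaller: Tubb4b held 27.2% ± 0.375 in stretched and 24.5% ± 0.209 in static cells, and Tubb5 68.5% ± 0.306 in stretched and 71.3% ± 0.121 in static cells (SD, n = 3 each). The ratio of the beta to the alpha sum per kb was 0.503 ± 0.0051 in stretched and 0.484 ± 0.018 in static cells, with overlap between groups. Shares and ratios are descriptions of chosen genes and were given no test. They rest on the longest transcript of each gene, and their size depends on that choice. In stretched cells Tuba1b stood at 2497 CPM per kb with the mean transcript length, against 1626 with the longest. Tubb5 stood at 1514 against 729, and Tuba1a at 379 with both lengths. Shares with the mean length were not computed.

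**Figure D4:**
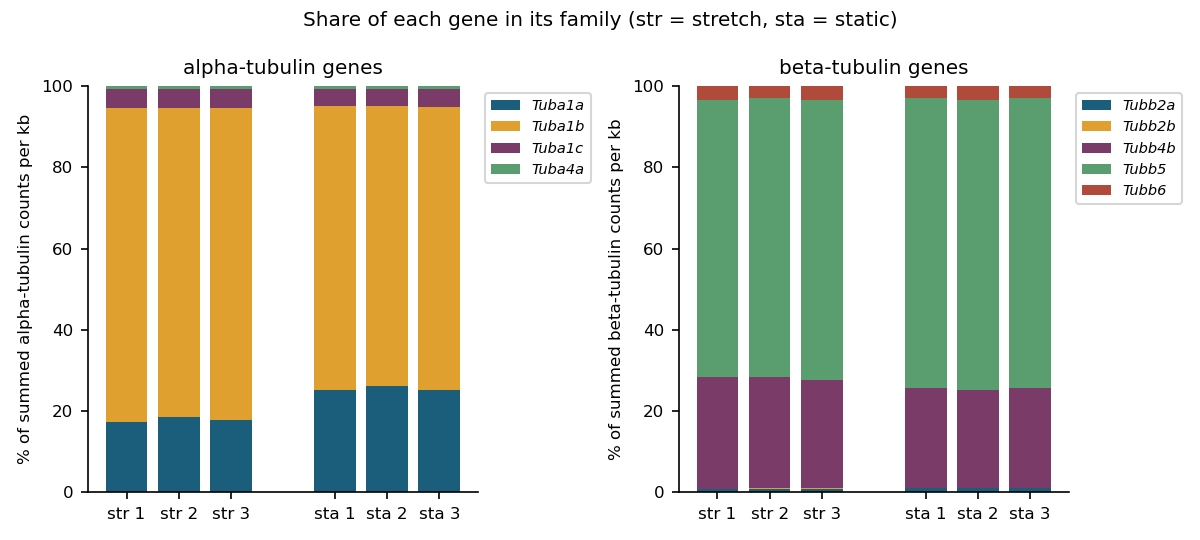
Share of each gene in the summed counts per kb of its family, in percent, for alpha-tubulin genes (left panel) and beta-tubulin genes (right panel), with the 3 stretched libraries left of the 3 static ones in each panel. Tuba1a takes 17.4% to 18.5% of the alpha sum in stretched libraries and 25.1% to 26.2% in static libraries, while the beta shares move by less.

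Stmn1 (chromosome 4, 134468320 to 134473843), the gene of stathmin, had 162, 168 and 166 CPM in stretched replicates, against 152, 171 and 157 CPM in static replicates. The groups overlapped through static replicate 2, the highest of all, and the difference did not pass (log2 fold change 0.05, 95% interval -0.04 to 0.14, edgeR adjusted p = 0.351). It passed without static replicate 2 (0.0965, adjusted p = 0.0301) and with scaling by library size alone (0.112, adjusted p = 0.0328), and over all 17 alternatives its adjusted p ran from 0.0301 to 1. Of its coding words 95.7% were shared, mainly with the gene model Gm11223. The related stathmin genes Stmn2, Stmn3 and Stmn4 were not found under these symbols in the count table.

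For 7 of the 10 genes RefSeq gave a promoter window of 250 bases before to 50 bases after the start (GRCm38.p6); Tubb2b, Tubb6 and Stmn1 had none in the table used. The windows were searched on both strands for CCAAT, a box bound by the factor NF-Y, and for TTTGAA, the core of an element found in genes active late in the cell cycle. CCAAT was present in 4 of the 7 (Tuba1a, Tuba1c, Tubb4b and Tubb5), against 37.4% of all 32851 windows, and TTTGAA in 1 of the 7 (Tubb4b), against 17.9%. The windows of the gene with the largest gain and of the gene that fell are shown, with both motifs in capitals; they did not overlap each other.
Tubb4b, chr2:25224653-25224952, minus strand: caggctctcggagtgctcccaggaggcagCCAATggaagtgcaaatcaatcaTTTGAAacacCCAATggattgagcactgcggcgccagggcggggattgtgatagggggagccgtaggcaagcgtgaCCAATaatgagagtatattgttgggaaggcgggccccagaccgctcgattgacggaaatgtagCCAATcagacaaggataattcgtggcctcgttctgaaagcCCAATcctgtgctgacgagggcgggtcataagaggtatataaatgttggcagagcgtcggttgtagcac
Tuba1a, chr15:98953452-98953751, minus strand: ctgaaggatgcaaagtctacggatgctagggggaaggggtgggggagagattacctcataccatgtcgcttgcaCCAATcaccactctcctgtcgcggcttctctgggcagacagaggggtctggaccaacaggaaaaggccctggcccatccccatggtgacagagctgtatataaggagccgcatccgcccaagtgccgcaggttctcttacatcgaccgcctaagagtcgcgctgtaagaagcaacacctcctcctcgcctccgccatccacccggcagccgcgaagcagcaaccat

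The Tubb4b window held CCAAT 5 times and TTTGAA once, and the Tuba1a window held CCAAT once, 176 bases before the start. These matches describe letters in a window and say nothing of binding.

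The other genes of the pathway were taken from 12 lists of tubulin relatives and microtubule regulators with 134 genes, of which 120 were tested. Among them 53 rose and 21 fell (61.7% called, against 50.9% of all tested genes), and the median log2 fold change was 0.12. Under library size scaling 70 were called higher and 16 lower, against 4117 higher and 2401 lower among all genes. Against 1.2-fold 16 of the 120 passed, near the 12.9% of all tested genes. Of the called genes named below, Akap9, Pfdn4, Map4, Map7d2, Ckap5, Camsap3, Ttll7 and Hmmr passed against 1.2-fold. Tube1, Tubgcp4, Tbcb, Ttc5, Cnot11, Eml4, Dctn1, Camsap1, Ttll4 and Numa1 did not.

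Of 2 other alpha- or beta-tubulin genes tested neither passed: Tubb3, a beta-tubulin of neurons and neural crest derivatives, stood at 98.4 ± 4.20 CPM in stretched and 92.8 ± 6.55 CPM in static cells (log2 fold change 0.09, edgeR adjusted p = 0.152), and Tubb4a was under 1 CPM in the mean of both groups. Tubb3 passed with scaling by library size alone (0.150), with an offset for GC content and length (0.186) and without static replicate 2 (0.132). Tubal3 had at most 6 counts in a library and was not tested, and Tuba3a, Tuba3b, Tuba8 and Tubb1 were not found under these symbols in the count table. Of the 2 centriolar tubulins Tube1 (epsilon) rose to 16.0 ± 1.01 CPM in stretched cells, against 12.6 ± 1.04 CPM in static cells, while Tubd1 (delta) had a log2 fold change of 0.10 without passing.

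In the list of the gamma-tubulin ring complex, which starts new microtubules, 8 of 13 genes rose and 3 fell (median log2 fold change 0.16), against 24.9% higher and 25.9% lower among all tested genes. Akap9, a scaffold at centrosome and Golgi, rose to 110 ± 4.49 CPM in stretched cells, against 79.4 ± 12.7 CPM in static cells, and the ring subunit Tubgcp4 fell to 51.8 ± 3.10 CPM, against 61.4 ± 1.86 CPM in static cells. Of the tubulin folding genes (prefoldin, the chaperonin CCT and the tubulin cofactors) 12 of 21 rose and 3 fell (median 0.12). The prefoldin subunit Pfdn4 rose to 26.1 ± 0.795 CPM in stretched cells, against 18.5 ± 0.540 CPM in static cells, and Tbcb, a cofactor that binds alpha-tubulin, fell to 59.9 ± 1.98 CPM, against 69.9 ± 3.46 CPM in static cells.

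Of the 4 genes tied to feedback on tubulin mRNA 1 rose, 1 fell and 2 did not pass (median 0.08). These shares lie near those over all tested genes (24.9% higher and 25.9% lower). Ttc5, which binds the nascent tubulin chain on the ribosome, rose to 32.3 ± 0.744 CPM in stretched cells, against 27.2 ± 1.25 CPM in static cells (log2 fold change 0.24, edgeR adjusted p = 0.0014). Cnot11, a subunit of the deadenylase complex recruited in this feedback, fell to 84.6 ± 3.38 CPM, against 95.2 ± 1.55 CPM in static cells (-0.17, adjusted p = 0.00225). The adaptor Scaper and the deadenylase scaffold Cnot1 had log2 fold changes of 0.10 and 0.07.

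Of the structural microtubule-associated proteins 4 of 16 rose and 4 fell (median 0.01), near the shares over all tested genes (24.9% and 25.9%). Map4, the main such protein of cells other than neurons, fell to 187 ± 5.07 CPM in stretched cells, against 237 ± 6.19 CPM in static cells. Map7d2 fell 1.58-fold, and Eml4 rose (log2 fold change 0.28). Of the plus-end tracking proteins 9 of 19 rose and 3 fell (median 0.13). Ckap5, a tubulin polymerase, stood at 286 ± 3.01 CPM in stretched cells and 214 ± 3.00 CPM in static cells, and Dctn1 fell (log2 fold change -0.18). Of the 3 minus-end proteins Camsap3 and Camsap1 fell (log2 fold changes -0.56 and -0.11, median -0.11), Camsap1 in 5 of 17 alternative settings, and Camsap2 did not pass.

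Of the severing enzymes 2 of 8 rose and 0 fell (median 0.05), and of the tubulin-modifying enzymes 4 of 16 rose and 4 fell (median 0.12). Among the modifying enzymes Ttll4, a glutamylase, rose to 65.5 ± 3.78 CPM in stretched cells, against 49.8 ± 6.001 CPM in static cells, and Ttll7, a glutamylase of beta-tubulin, fell to 16.1 ± 1.48 CPM, against 24.0 ± 1.38 CPM in static cells. Of the microtubule proteins of the mitotic spindle 12 of 16 rose and 1 fell (81.2% called, median 0.33), against 50.9% called, 24.9% higher and 25.9% lower, among all tested genes. Hmmr, a spindle assembly factor, rose to 137 ± 4.46 CPM in stretched cells, against 92.4 ± 2.09 CPM in static cells, and Numa1, a spindle pole protein, fell to 191 ± 3.99 CPM, against 221 ± 5.001 CPM in static cells. The part of spindle genes in the tubulin values was not tested.

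**Figure D5:**
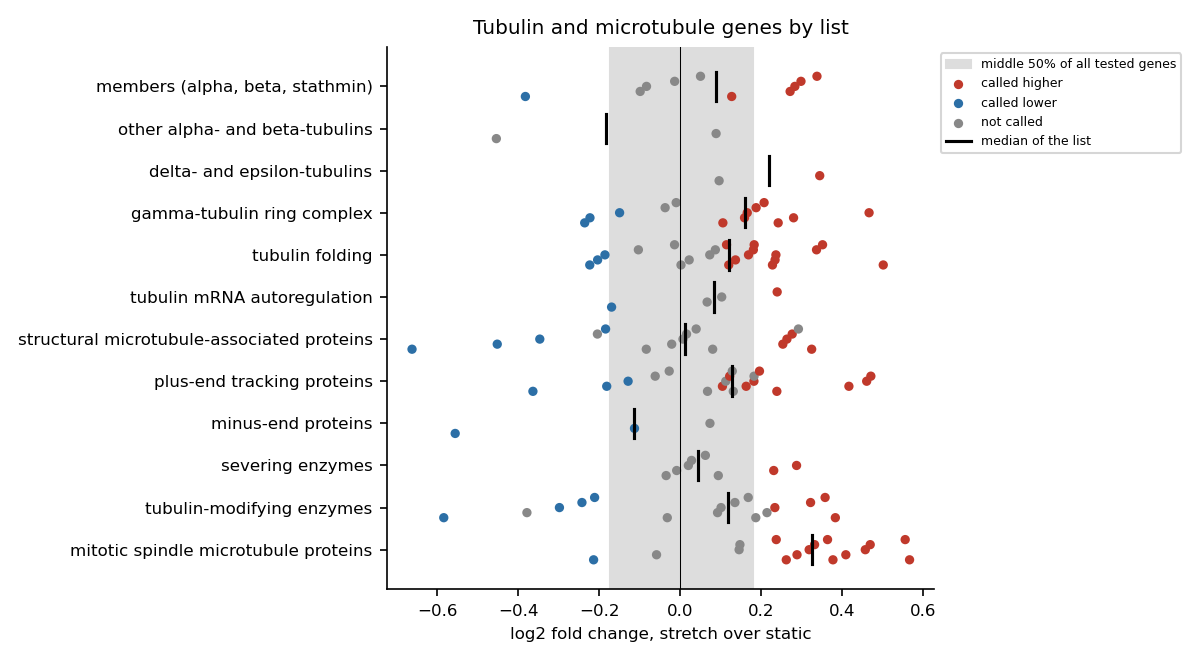
Log2 fold change, stretched over static cells, of each tested gene among the 10 genes (top) and in the lists named on the vertical axis, coloured by call, with the median of each list as a black bar and the span between the quartiles of all tested genes (-0.17 to 0.18) in grey. The spindle list has the highest median (0.33), and the structural proteins and modifying enzymes spread to both sides.

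For Tuba1a, of the 10 genes the called one with the largest change at a mean of 5 CPM or more, the genes with the most similar profile over the 6 libraries were sought among 9987 others by the root mean squared difference of log2(CPM + 1) values, each centred on its own mean. The nearest were Tmem192, a lysosomal membrane protein gene (difference 0.0207), Gyg, the gene of glycogenin (0.0231), and Srr, the gene of serine racemase (0.0255), with log2 fold changes of -0.36, -0.36 and -0.41. In Tmem192, Gyg and Srr, as in Tuba1a, the highest level was that of static replicate 2. The 3 genes were picked for likeness over these same 6 libraries, so the shared pattern follows from the choice.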

How the data were processed

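Gene expression was measured by RNA sequencing in 3 stretched and 3 static samples, grouped by the labels. The deposited values are the authors' estimated counts, whole numbers by Entrez Gene number, with no scaling across libraries. The submitters' processing notes name Salmon 1.4.0, mm10 and GRCm38 and give them no role. Salmon divides reads among similar transcripts by a statistical estimate, so paralog values carry added uncertainty. Transcript index, strand and trimming were likewise not given in the sources used here. No gene in the table summed to fewer than 10 counts over the 6 libraries. RefSeq (GRCm38.p6) gave symbols for 14875 of 14883 numbers, and the rest stayed in the tests.

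Counts were filtered with filterByExpr (minimum count 10), which removed 2506 genes, scaled by TMM (factors 0.966 to 1.02) and fitted with the group alone in edgeR 4.0.16 (R 4.3.3, quasi-likelihood, two-sided, 4 residual degrees of freedom before sharing spread across genes). The biological coefficient of variation was 3.6%. Intervals are 95% intervals from this fit. An exact test between 3 and 3 samples cannot go below p = 0.1. Within groups, libraries differed by more than sampling noise (chi-square per degree of freedom 1.88 to 7.64), which shows no library deposited more than once and does not show that they are independent cultures. The fit was tested on simulated data. The simulated counts had the same spread for every gene and did not model the division of reads between similar genes.

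The genes and lists were chosen with earlier results of these data known. Named genes were all 10, and of each other list its tested genes where 4 or fewer, else the 3 called genes of lowest p in each direction. Alternatives were RLE, upper-quartile and library-size scaling, other count filters, DESeq2 1.42.0, limma 3.58.1 (voom), glmTreat, a replicate block, thinned counts, a GC and length offset (natural splines with 5 degrees of freedom, GENCODE M21) and leaving out each library. Sequences came from GENCODE M21 and RefSeq. Some sequences and 1 marker gene are not reported here.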

Additional observations from a re-analysis of the deposited data

How the results depend on the processing

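The 6 calls among the 10 genes kept their direction and their call under each of the 17 alternatives except glmTreat against 1.2-fold, where 2 of 6 stayed. There 1 of the 10 genes was called higher, as were 679 of all genes and 11 of the other microtubule genes, and 913 and 5 were called lower. Leaving out each library in turn gave 5 to 6 of the 10 genes higher. Correlations of deviations of same-numbered libraries were -0.00663, -0.0339 and -0.132, against -0.0983 to 0.116 for libraries of different number. Such values do not show whether the samples were set up as pairs. With the replicate block 2924 genes were higher and 3043 lower, with 5 and 1 of the 10. Uncalled genes that turned sign were Tubb2a with upper-quartile factors (0.0017), library size (0.0465), the GC and length offset (0.0582), without stretch replicate 1 (0.0028) and without static replicate 3 (0.0136), and Tubb2b without static replicate 1 (0.321). Over the fits without 1 library Tubb2a ran from -0.0329 to 0.0136 and Tubb2b from -0.302 to 0.321. Of the other named genes Cnot1 (-0.0318) and Camsap2 (-0.0118), both uncalled, turned sign with the GC and length offset. Among 798 values of the other 47 named genes, 730 kept direction and call, 59 lost the call, 7 gained one and 2 turned sign. More of the 59 calls were lost under glmTreat, where the null hypothesis itself differs, than under any other setting. The 11 higher and 5 lower calls there among the other microtubule genes compare with 53 and 21 in the main fit. The cause of the other changes was not tested. Tubb2b rests on 13 to 34 counts a library.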
